A study of Mus musculus with 14 samples.

Results

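The deposited peak lists of 3 lines of mouse ES (embryonic stem) cells and of 3 mouse embryonic fibroblast (MEF) cultures were compared for stretches of the genome with methylated DNA in all samples of one cell type and in no sample of the other. A stretch was an interval on the 19 autosomes covered by a peak of each of the 3 samples of a group, and it was called ES-only or MEF-only when no peak of the other group overlapped it by 1 base or more. There were 2384 ES-only and 622 MEF-only stretches, 3006 together, among 118207 merged regions with a peak in at least 1 of the 6 samples. Across the 14 samples of the whole series, which also holds 8 induced pluripotent stem (iPS) cell clones, the peaks merged into 147237 regions.

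In mammalian DNA the cytosine of a CpG dinucleotide can carry a methyl group, placed by the DNA methyltransferases and copied at each cell division. Most CpGs of the mouse genome are methylated, whereas CpG-dense promoters are usually free of methylation, and methylation of such a promoter goes with silencing of its gene. Proteins with a methyl-CpG-binding domain (MBD) hold methylated fragments, and MBD sequencing reads those fragments, so that a peak marks methylated DNA that is rich enough in CpG to be caught; a missing peak marks DNA that is unmethylated, poor in CpG or below the detection threshold.

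The ES group held RF8 (129SV strain, passage 19), MG1.19 (129Ola) and B6 ES (C57BL6), 3 separate lines grown on gelatin with leukaemia inhibitory factor. The fibroblast group held MEF#1, MEF#2 and MEF#3, cultured to passage 3 from single mid-gestation embryos with C57BL6, DBA and 129S4 ancestry, without head and gastrointestinal tract; they were Aid+/+ (wild type for the cytidine deaminase gene Aid) and carried a Nanog-GFP reporter. Strain, culture and cell type cannot be told apart between the groups, and the peak caller was MACS 1.4.0rc2 for the ES lines and MEF#1 but MACS 1.4.1 for MEF#2 and MEF#3. Reads of the Nanog-GFP reporter cannot be told from those of the endogenous Nanog gene. No input library was used in calling the peaks, so a fold enrichment here is the number of reads in a peak over the local background of the same library.

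The file headers gave 20.1 to 29.7 M mapped reads (tags) per ES line and 27.6 to 30.1 M per MEF culture, of which 10.2 to 15.5 M and 17.5 to 19.6 M were left after removal of duplicates. The libraries differed in the number of peaks on autosomes, which was 56045 in RF8, 31650 in MG1.19 and 101951 in B6 ES, and 45572, 54953 and 33500 in MEF#1, MEF#2 and MEF#3. Peaks held 30.7%, 15.4% and 52.2% of the filtered tags in the ES lines and 18.05% to 25.8% in the MEFs. MG1.19 and B6 ES thus stood at the 2 ends of the series' ES lines. The peak numbers of the groups overlapped (63215 ± 35695 in ES lines against 44675 ± 10755 in MEFs, SD, n = 3 each; p = 0.6, two-sided exact permutation test, for which 3 against 3 samples can give no p below 0.1).

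As a check of the labels, 12 promoters of ES cell genes and 12 of fibroblast genes were inspected. Of the ES cell promoters, none had a peak in RF8 or MG1.19, 1 had a peak in B6 ES (Khdc3, 25.4-fold), and 2, 2 and 0 had a peak in MEF#1, MEF#2 and MEF#3. Of the fibroblast promoters, 2 had a peak in B6 ES (Col1a1, 29.2-fold, and Meox1, 12.1-fold) and none in the other 5 samples. Nanog, a homeobox factor of pluripotent cells, had a promoter peak in MEF#1 (7.93-fold) and MEF#2 (7.18-fold) and in none of the ES lines or MEF#3. The promoters of Pou5f1, Dppa3, Zfp42, Thy1, Twist1 and Cdh1 had no peak in any of the 6 samples, so few of these promoters bore on the labels.

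The following sequences show the contrast in CpG content between the 2 sets. Each is 151 bases of the reference genome (NCBI build 37, mm9) around the mean summit of the 3 peaks, printed 5′ to 3′ on the strand of the named gene, with CG dinucleotides in capitals. The MEF-only examples are Hsf4 (chr8:107792669-107792819, plus strand, in an exon of the neighbouring Fbxl8), Nsd1 (chr13:55311419-55311569, plus, intron), Hoxc10 (chr15:102797960-102798110, plus, exon), Krt8 (chr15:101834499-101834649, minus, exon) and Peg12 (chr7:69608645-69608795, minus, exon).
Hsf4: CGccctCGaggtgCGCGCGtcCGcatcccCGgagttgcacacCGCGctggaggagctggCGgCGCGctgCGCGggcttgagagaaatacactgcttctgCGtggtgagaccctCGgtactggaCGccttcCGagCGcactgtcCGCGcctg
Nsd1: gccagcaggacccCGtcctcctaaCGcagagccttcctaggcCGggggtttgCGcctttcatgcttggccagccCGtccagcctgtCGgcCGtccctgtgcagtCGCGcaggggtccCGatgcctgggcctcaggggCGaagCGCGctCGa
Hoxc10: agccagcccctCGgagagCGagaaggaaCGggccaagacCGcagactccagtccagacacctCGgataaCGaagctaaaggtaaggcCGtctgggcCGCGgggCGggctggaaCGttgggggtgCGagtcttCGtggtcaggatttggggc
Krt8: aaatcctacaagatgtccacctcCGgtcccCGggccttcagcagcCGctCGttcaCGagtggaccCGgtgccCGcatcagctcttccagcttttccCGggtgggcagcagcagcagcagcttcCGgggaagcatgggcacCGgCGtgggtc
Peg12: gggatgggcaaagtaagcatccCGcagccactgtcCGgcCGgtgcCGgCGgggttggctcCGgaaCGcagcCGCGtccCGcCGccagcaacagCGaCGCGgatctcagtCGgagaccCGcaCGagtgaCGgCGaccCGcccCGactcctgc
The ES-only examples are the promoters of Zfp772 (chr7:7162517-7162667, minus, 5′ of the gene model), Sohlh1 (chr2:25702153-25702303, minus, intron), Pck1 (chr2:172978951-172979101, plus, exon) and Tat, the liver enzyme tyrosine aminotransferase (chr8:112513606-112513756, plus, 5′ of the gene model), and the intergenic stretches nearest to Rpa3 (chr6:8196359-8196509) and Adra2a (chr19:54376971-54377121), both printed on the plus strand.
Zfp772: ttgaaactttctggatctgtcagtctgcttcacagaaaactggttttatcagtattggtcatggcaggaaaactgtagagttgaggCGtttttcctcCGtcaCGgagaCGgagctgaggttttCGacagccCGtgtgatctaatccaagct
Sohlh1: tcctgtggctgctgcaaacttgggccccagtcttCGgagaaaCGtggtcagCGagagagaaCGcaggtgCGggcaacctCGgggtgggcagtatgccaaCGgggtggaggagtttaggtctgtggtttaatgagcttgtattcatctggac
Pck1: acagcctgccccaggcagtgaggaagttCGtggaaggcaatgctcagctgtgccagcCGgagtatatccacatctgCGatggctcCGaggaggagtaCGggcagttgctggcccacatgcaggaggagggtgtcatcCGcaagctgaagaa
Tat: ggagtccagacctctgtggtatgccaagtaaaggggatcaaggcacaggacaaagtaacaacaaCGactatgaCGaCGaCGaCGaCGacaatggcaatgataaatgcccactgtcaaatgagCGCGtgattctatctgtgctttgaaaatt
Rpa3: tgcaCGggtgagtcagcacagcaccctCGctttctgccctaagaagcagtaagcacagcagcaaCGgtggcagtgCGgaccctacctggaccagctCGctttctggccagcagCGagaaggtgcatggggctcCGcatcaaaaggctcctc
Adra2a: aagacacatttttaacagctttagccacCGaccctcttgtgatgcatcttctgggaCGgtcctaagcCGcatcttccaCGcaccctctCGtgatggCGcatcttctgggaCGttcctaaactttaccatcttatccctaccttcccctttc
The 5 MEF-only windows held 21, 14, 13, 11 and 21 CpGs in the order printed, and the 6 ES-only windows 6, 7, 6, 8, 7 and 7.

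Over whole sets the same contrast in base composition was seen. In the 301 bases around the middle of a stretch, ES-only stretches had a median of 3.32 CpGs per 100 bases (quartiles 2.66 and 3.65), MEF-only stretches 6.48 (4.98 and 8.97), and the 16988 common stretches, covered by a peak of each of the 6 samples, 4.98 (4.32 and 5.98). More than 5 CpGs per 100 bases were found at 2.31% of ES-only, 74.0% of MEF-only and 49.1% of common stretches. Median GC content was 49.8%, 63.1% and 52.5%. These are descriptions over stretches of the same libraries, and stretches are not replicates.

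**Figure D1:**
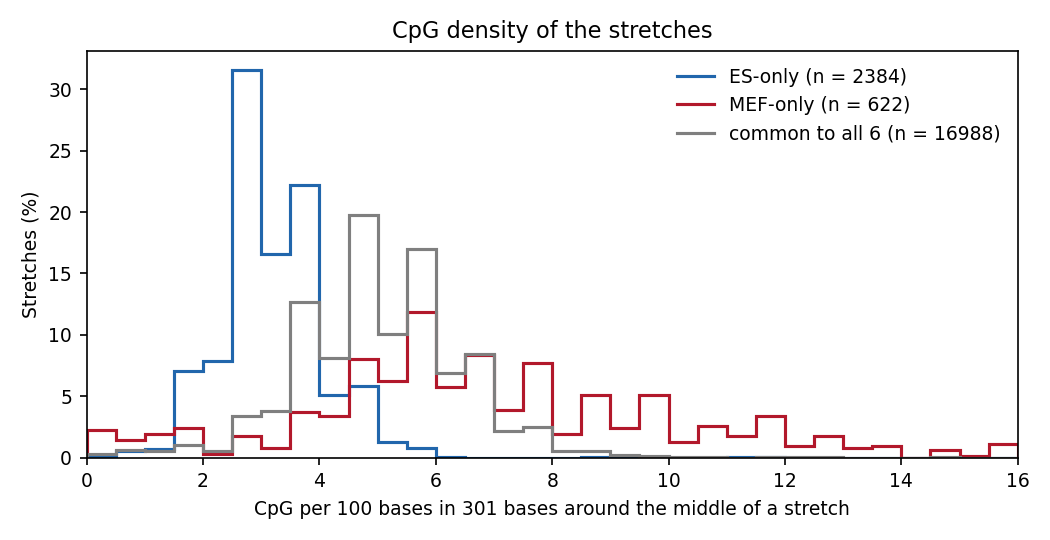
CpG content of the stretches, in CpGs per 100 bases over the 301 bases around the middle of a stretch (x axis), against the percent of stretches (y axis) for ES-only, MEF-only and common stretches, with values beyond the axis in the last bin. The ES-only distribution lies lowest (median 3.32), the MEF-only distribution is broad and lies highest (median 6.48), and the common stretches lie between (median 4.98).

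The 2 directions were not equally frequent. Of the 25781 stretches covered by a peak of each ES line, 2384 had no MEF peak (9.25%), 2474 had a peak of 1 MEF, 4118 of 2 MEFs and 16805 of all 3. Of the 29755 stretches covered by a peak of each MEF, 622 had no ES peak (2.09%) and 16631 had a peak of all 3 ES lines. The direction of this difference depended on the number of peaks per library: with the strongest 31650 peaks of each sample, there were 1289 ES-only and 3567 MEF-only stretches.

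A single line decided the MEF-only count. B6 ES was the only ES line with a peak at 5686 MEF stretches (19.11%), against 108 for RF8 and 51 for MG1.19, and B6 ES and RF8 together carried a further 6085 (20.5%). Without B6 ES there were 6308 MEF-only stretches. Conversely, without MG1.19, the ES library with the fewest peaks, there were 11869 ES-only stretches, and without MEF#2 there were 3964.

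The members just inside the rule were weaker on the ES side. The weakest of the 3 peaks that made a stretch had a median score (-10 log10 of the MACS p-value) of 73.1 at ES-only stretches (range 50.0 to 614) and 140 at MEF-only stretches (range 50.2 to 2587), where 50 was the threshold of the files. Scores under 100 were found for 1838 of 2384 ES-only and 221 of 622 MEF-only stretches. Just outside the rule, the single MEF peak at 2474 ES stretches had a median score of 79.1, and the single ES peak at 5845 MEF stretches, of B6 ES in 5686 of them, had a median of 365.

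Within groups, the MEFs shared more peaks than the ES lines did. Of the merged regions of a pair of samples, both had a peak in 49.8% to 66.0% between MEFs, 24.8% to 44.3% between ES lines and 27.9% to 48.0% between an ES line and a MEF. The range of the ES pairs lay within or below that of the mixed pairs, and 0 to 3 peaks of a pair were identical in position.

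MEF-only stretches lay at promoters and exons more often than the other sets. A promoter was the window from 1000 bases before to 500 after the start of a protein-coding gene. The start of a gene was here that of its longest protein-coding transcript. Each stretch was given 1 feature by its midpoint, in the order promoter, exon, intron, intergenic. Promoters took 0.881% of ES-only, 9.81% of MEF-only, 1.05% of common stretches and 1.83% of all merged regions. Exons took 14.4%, 33.3%, 14.7% and 15.7%, introns 33.8%, 22.0%, 23.0% and 35.8%, and intergenic DNA 51.0%, 34.9%, 61.3% and 46.7%. The median distance to the nearest gene start was 50.9 kb for ES-only, 8.69 kb for MEF-only and 55.7 kb for common stretches. The MEF-only promoter share was 3.34% with the same number of peaks in each sample and 4.41% without B6 ES.

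**Figure D2:**
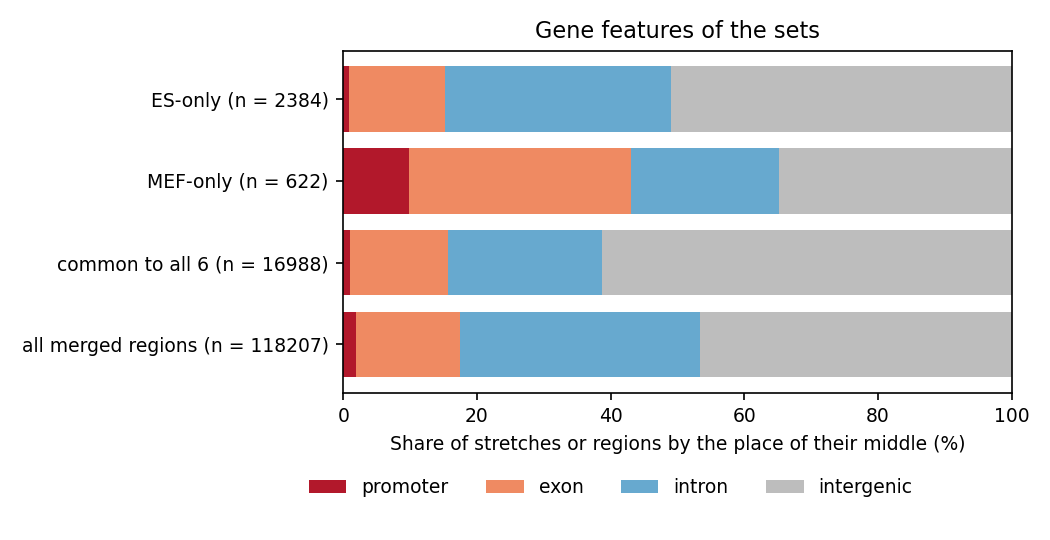
Share of stretches (percent, x axis) at promoters, exons, introns and intergenic DNA for ES-only, MEF-only and common stretches and for all merged regions. Promoters and exons take 9.81% and 33.3% of MEF-only stretches against 0.881% and 14.4% of ES-only stretches.

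The same features could be tested over samples, on the full peak list of each. Promoters held 1.26%, 1.12% and 1.77% of the peaks of RF8, MG1.19 and B6 ES and 2.09%, 1.88% and 2.28% of those of MEF#1, MEF#2 and MEF#3. The groups did not overlap (1.38 ± 0.341% against 2.08 ± 0.201%, SD, n = 3 each), with p = 0.1 in the two-sided exact permutation test, the smallest that 3 against 3 samples can give, and 0.4 after Benjamini-Hochberg adjustment over 8 measures. Exon shares also did not overlap, at 20.6%, 14.6% and 20.5% against 22.4%, 22.1% and 21.1% (exact permutation p = 0.1, adjusted 0.4). Intron and intergenic shares, covered length, median enrichment and the share of tags in peaks overlapped between the groups.

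At the level of genes, 27 of 21410 protein-coding promoters had a peak in all ES lines and no MEF (0.126%), and 84 had a peak in all MEFs and no ES line (0.392%). A further 224 promoters had a peak in all 6 samples, and 18347 had none. Counted over the whole gene span, 205 genes were ES-only (0.957%) and 91 were MEF-only (0.425%). As with the stretches, a stricter score removed more of the ES-only promoters: at p of 1e-10 or less, 8 of the 27 and 51 of the 84 were still called. Leaving out MG1.19 gave 158 ES-only promoters and 876 ES-only genes, and leaving out MEF#2 gave 46 and 422. Leaving out B6 ES gave 42 ES-only and 364 MEF-only promoters and 793 MEF-only genes.

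The MEF-only promoters were mostly CpG-rich. By the usual classes, set by the CpG observed-to-expected ratio and GC content of 500-base windows, 57 of 84 MEF-only promoters were high, 22 intermediate and 5 low in CpG, whereas 4, 12 and 11 of the 27 ES-only promoters were. High-CpG promoters made up 67.9% of the MEF-only, 14.8% of the ES-only and 16.5% of the promoters with a peak in all 6 samples, and 47.2% of all promoters. Without B6 ES the share was 39.6% of 364 MEF-only promoters, and with the same number of peaks 46.9% of 179, both below the 47.2% of all promoters. The median summit was 143 bases after the gene start in both sets. Summits lay downstream of the start at 20 of 27 ES-only and 57 of 84 MEF-only promoters. They lay inside the promoter window at only 21 of 27 and 60 of 84. Among the MEF-only summits outside it were those of Sox7, Peg12, Hoxd3, Otx1, Foxf1a and Hoxc10, 534 to 808 bases after the start. Those of Tbcb, Zfp503, Col12a1 and Hoxb7 lay upstream of the window, at -1278 to -1043 bases. The ES-only summits of Sohlh1 and Spem1 lay 540 and 686 bases after the start.

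The strongest MEF-only promoter was that of Hsf4, a heat shock transcription factor of the lens (chr8, start at 107793701). Its peak held 1015, 954 and 1072 tags in MEF#1, MEF#2 and MEF#3, at 12.6-, 12.3- and 13.6-fold enrichment (12.8 ± 0.677, SD, n = 3). No ES line had a peak there, and 4 of 8 iPS clones had. The peak lay toward the 5′ edge of the window, and the call was lost with the narrow and with the wide window, as was that of Tbcb. The promoter of Creld1, a membrane protein with EGF-like repeats linked to heart septum formation, was enriched 29.7-, 20.1- and 25.3-fold, and that of Tbcb, a tubulin folding cofactor, 28.6-, 29.0- and 26.9-fold. Nsd1, a methyltransferase of histone H3 lysine 36, had 24.1-, 19.9- and 20.0-fold. A peak was present in all 3 MEFs at these promoters, and 3, 1 and 1 iPS clones had a peak at Creld1, Tbcb and Nsd1.

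The other promoters among the 10 with the strongest weakest peak were less well characterised. The transcript CT009512.1 had 18.7-, 16.7- and 17.9-fold enrichment in a stretch that also overlaps the gene span of Cdh24, a cadherin. The promoter of Cdh24 was not itself called MEF-only. Krtcap3, a keratinocyte-associated membrane protein, had 21.9-, 16.6- and 27.4-fold. The remaining 4 were 1700067K01Rik, 9330171B17Rik, 4932443L11Rik and Gm6802, with mean enrichments of 19.5, 18.6, 17.6 and 18.8 and a peak in 3, 0, 1 and 2 iPS clones. Gm6802 was grouped with other MEF-only promoters of chromosome 12 (Gm17680, 1700030C10Rik, Gm10479, Gm3944, Gm9257 and Gm9590). Their sequences shared 3.81% to 35.9% of their 31-base words with the best-matching other member of the group. Whether tags could be placed uniquely in these promoters, and whether their peaks are independent, was not tested.

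Hox genes, the homeobox factors that pattern the body axis, fell on the MEF-only side. Of 40 Hox promoters, 5 were MEF-only (12.5%, against 0.392% of all promoters), none was ES-only and none had a peak in all 6 samples. The 5 were Hoxa2 (7.99-, 5.24- and 9-fold in MEF#1, MEF#2 and MEF#3), Hoxb7 (6.13-, 7.72- and 12.1-fold), Hoxc9 (19.5-, 14.9- and 9.54-fold), Hoxc10 (18.1-, 16.1- and 12.5-fold) and Hoxd3 (10.1-, 10.8- and 15.8-fold). Over gene spans, 9 of 40 were MEF-only (22.5%, against 0.425% of all genes). Neighbouring Hox genes overlap and can share a stretch, so the genes are not independent. Without B6 ES, 7 of 40 promoters and 15 of 40 spans were MEF-only (17.5% and 37.5%, against 1.70% and 3.70% of all genes). At p of 1e-10 or less 3 of 40 promoters and 3 of 40 spans were (7.5% each, against 0.350% and 0.570% of all genes).

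The 4 Hox clusters together spanned 492 kb and held 20 MEF-only and no ES-only stretches: 7 in Hoxa (chr6:52105366-52210874), 6 in Hoxb (chr11:96055630-96229570), 3 in Hoxc (chr15:102751534-102867274) and 4 in Hoxd (chr2:74506367-74603200). The clusters held 45, 39 and 34 peaks in MEF#1, MEF#2 and MEF#3 and 7, 2 and 32 in RF8, MG1.19 and B6 ES. B6 ES thus came close to MEF#3 in number, and RF8 and MG1.19 lay below all MEFs. In the iPS clones the number ran from 8 to 38, with 37 in 967B2, 38 in 981E4, 31 in 979F1 and 24 in 979F3 and 8 to 12 in the other 4.

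Other regulators of embryonic development also fell on the MEF-only side. Of 76 such genes outside the Hox clusters, 3 promoters were MEF-only (3.95%) and none ES-only. Foxf1a, a forkhead factor of mesenchyme, had 18.6-, 17.9- and 20.1-fold enrichment, Otx1, a homeobox factor of the forebrain, 10.2-, 7.19- and 7.79-fold, and Sox7, an HMG-box factor of endoderm and endothelium, 14.8-, 13.5- and 13.4-fold. Over gene spans, 8 of 76 were MEF-only (10.5%, against 0.425%): Sox9, Foxf2, Foxc1, Foxc2, Dlx2, Msx1, Irx3 and Irx5, named here after their values were seen. None of the 76 spans was ES-only, and 3 were when MG1.19 was left out (3.95%, near the 4.09% of all spans). Without B6 ES, 5 promoters and 18 spans were MEF-only (6.58% and 23.7%, against 1.70% and 3.70% of all genes). At p of 1e-10 or less 12 spans were (15.8%, against 0.570% of all spans). With the narrow promoter window, from 250 bases before to 50 after the start, none of the 76 promoters was MEF-only, against 0.266% of all promoters.

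Epithelial and imprinted genes gave 2 MEF-only promoters each (7.41% and 5.13%, against 0.392% of all promoters). The epithelial genes were Krt8, a keratin of simple epithelia (10.5-, 11.6- and 10.1-fold), and Ap1m2, a subunit of the epithelial clathrin adaptor (14.5-, 14- and 10.3-fold), of 27. A Krt8 promoter peak was present in 7 of 8 iPS clones, unlike at most MEF-only promoters. The imprinted genes were the paternally expressed neighbours Peg12 (23.9-, 23.2- and 21.8-fold) and Mkrn3 (11.8-, 8.70- and 11.0-fold), of 39, and neither had a peak in any iPS clone. Without MEF#2 or without MEF#3, 4 of 39 imprinted promoters were MEF-only (10.3%, against 0.518% and 0.514% of all promoters). With the wide window, from 2000 bases before to 1000 after the start, 5 were (12.8%, against 0.509%). With the narrow window 1 was (2.56%, against 0.266%). Without B6 ES or at p of 1e-10 or less, 3 of 27 epithelial promoters were MEF-only (11.1%, against 1.70% and 0.350% of all promoters). By contrast, 7 imprinted promoters had a peak in all 6 samples and in all 8 iPS clones (Gnas, Mest, Nap1l5, Nnat, Peg3, Plagl1 and Zrsr1), 17.9% of the list against 1.05% of all promoters.

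The listed germline genes, many of which have promoters known to be methylated in somatic cells, were not called in either direction. Sohlh1 and Spem1, genes of germ cells and spermatids that were not on this list, were ES-only at their promoters. Of 40, 36 had a promoter peak in at least 1 of the 6 samples and 28 had one in more MEFs than ES lines (70.0%, against 4.85% of all promoters), but none was ES-only or MEF-only. The number with a peak was 19 in RF8, 4 in MG1.19 and 36 in B6 ES, and 32, 33 and 30 in MEF#1, MEF#2 and MEF#3. The MEFs lay close together, whereas B6 ES was above and RF8 and MG1.19 were below them. Without B6 ES, 11 of 40 were MEF-only (27.5%, against 1.70% of all promoters). The 4 with a peak in all 6 samples were Dazl, Dpep3, Fkbp6 and Tdrd9.

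**Figure D3:**
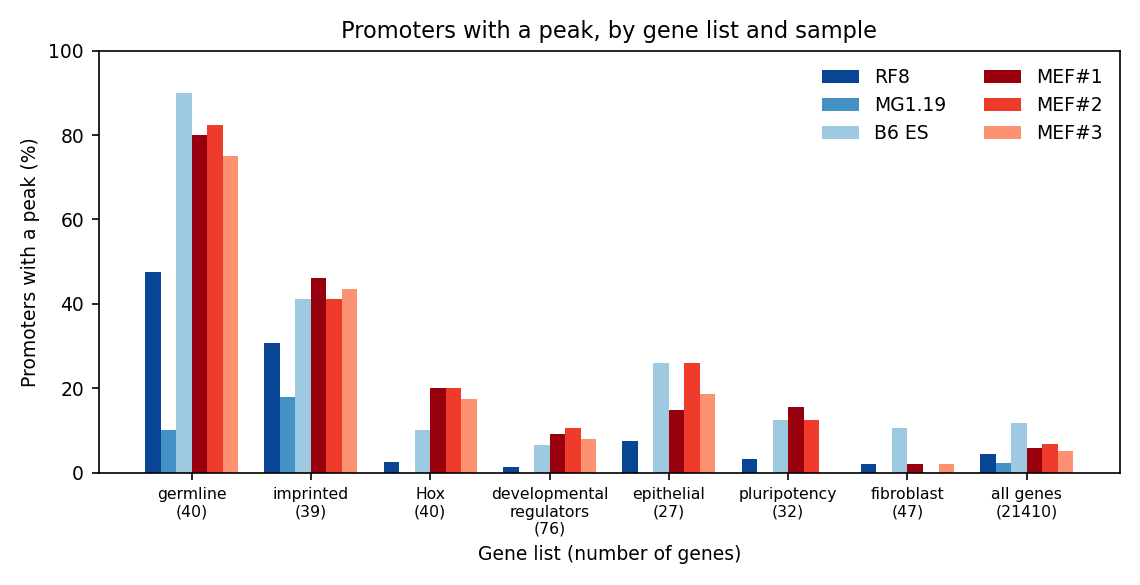
Share of promoters with a peak (percent, y axis) in each of the 6 samples (bars) for 7 gene lists and all 21410 protein-coding genes (x axis). At Hox genes the 3 MEFs stand above the 3 ES lines, whereas at germline genes B6 ES stands above the MEFs and RF8 and MG1.19 below them.

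No promoter or gene span of 32 pluripotency genes or 47 fibroblast and mesenchymal genes was ES-only or MEF-only, against 0.126% and 0.392% of all promoters and 0.957% and 0.425% of all spans. These counts of 0 changed with single libraries. Without MEF#3, 2 pluripotency promoters (6.25%) and 1 span (3.1%) were MEF-only, against 0.514% of all promoters and 0.542% of all spans. In that setting 1 fibroblast span was ES-only (2.13%, against 1.06% of all spans). Without B6 ES, 2 pluripotency spans (6.25%) and 1 fibroblast span (2.13%) were MEF-only, against 3.70% of all spans. Without MG1.19, 1 pluripotency span (3.1%) and 3 fibroblast spans (6.38%) were ES-only, against 4.09% of all spans. There 1 fibroblast promoter was ES-only as well (2.13%, against 0.738% of all promoters). Promoter peaks were found in at least 1 of the 6 samples at 10 of the 32 pluripotency and 5 of the 47 fibroblast genes. Pluripotency promoters had a peak in more MEFs than ES lines in 6 cases and in more ES lines than MEFs in 4, and fibroblast promoters in 1 and 4 cases.

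The ES-only promoters were fewer than the MEF-only promoters, and with the same number of peaks in each sample 4 of the 27, and 2 of the 10 described first here, were still called. Zfp772, a zinc finger protein, led with 35.2-, 20.2- and 14.5-fold enrichment in RF8, MG1.19 and B6 ES. Sohlh1, a helix-loop-helix factor of germ cells, had 15.0-, 16.7- and 27.3-fold, and Pck1, the cytosolic enzyme of gluconeogenesis, 13.7-, 9.87- and 10.6-fold. Peaks at Zfp772, Sohlh1 and Pck1 were present in 4, 8 and 7 of 8 iPS clones. Slc7a15, of a family of amino acid transporters, had 9.5-, 11.9- and 9.27-fold, and Wfdc5, of the WAP family of protease inhibitors, 14.9-, 21.3- and 5.43-fold. At Zfp772 and Wfdc5 the lowest value was that of B6 ES, whereas at Sohlh1 it was the highest.

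Gm2382 and Gm10634 are divergent gene models that share a single peak (14.6-, 27.5- and 20.5-fold) and count as 1 stretch. The promoter of Gm10121 was enriched 29.3-, 15.9- and 38.9-fold, and those of Gm10291 and Spem1, a factor of spermatid maturation, completed the 10 strongest. Krt32, a hair keratin, and the olfactory receptor Olfr1395 were ES-only members of their families. Zfp772, Gm2382, Gm10634, Slc7a15, Wfdc5, Gm10291, Spem1 and Pck1 lost the call with the same number of peaks.

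**Figure D4:**
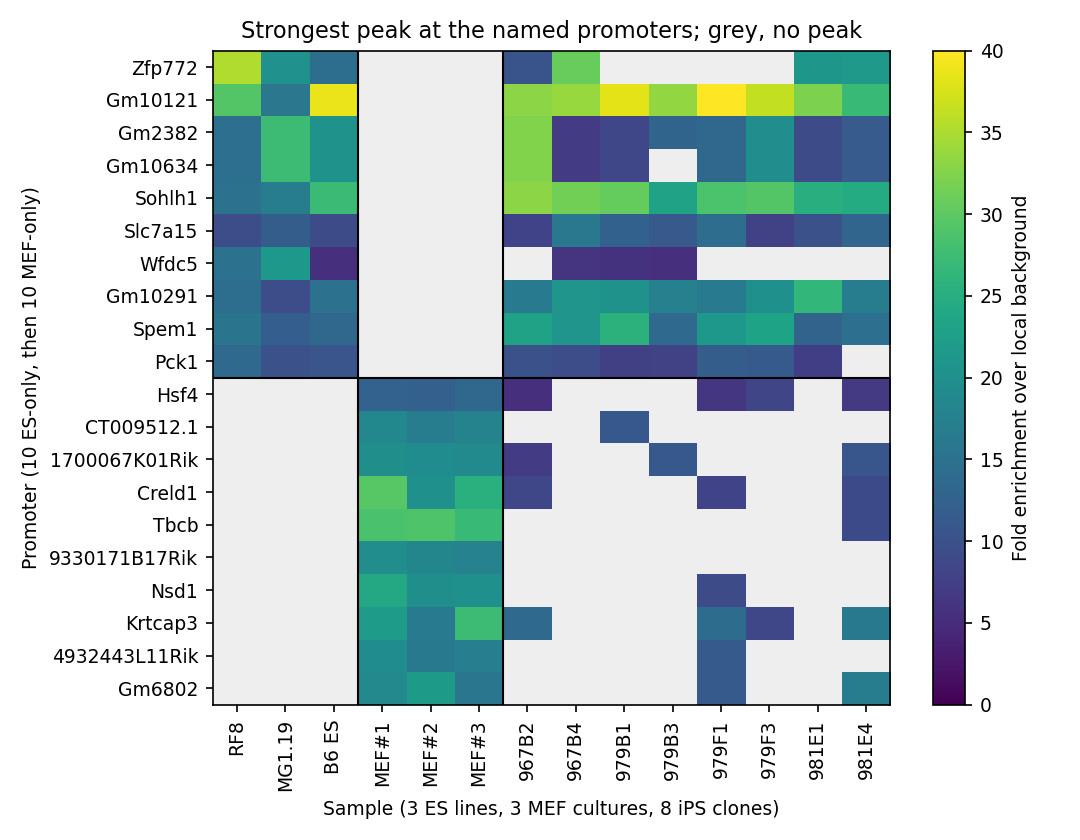
Fold enrichment over local background (colour) of the strongest peak at the 10 first-ranked ES-only and the 10 first-ranked MEF-only promoters (rows) in all 14 samples (columns), with grey where no peak was called. ES-only promoters mostly have peaks in the iPS clones and MEF-only promoters mostly do not, with Hsf4 and Krtcap3 (4 clones each) the most frequent among the MEF-only rows.

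The strongest stretches were not all at genes. Of the 5 ES-only stretches with the highest weakest score, 4 were intergenic: chr6:8196267-8196667, 9.27 kb from Rpa3 (37.3-, 30.1- and 35.0-fold), chr16:89786992-89787352 beside Tiam1 (27.2-, 23.6- and 12.1-fold), chr19:54376864-54377221, 253 kb from Adra2a (38.8-, 28.6- and 42.7-fold), and chr4:17238017-17238833, 541 kb from Mmp16 (23.8-, 18.1- and 12.8-fold). The last lay in an intron of Plcd3, a phospholipase C (chr11:102948868-102950001). All 5 had a peak in the 8 iPS clones.

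The 5 MEF-only stretches lay in genes. The first was in an intron of Clasrp, a splicing-related protein (chr7:20171445-20172559, with 15.9-, 16.4- and 16.8-fold). The next were in exons of Egr3, a zinc finger factor of immediate early response (chr14:70478717-70480618), Zfp444 (chr7:6140885-6141724) and Tbkbp1, a TBK1-binding protein (chr11:96999645-97001010). The last was at the promoter of CT009512.1, within the span of Cdh24 (chr14:55250725-55251582). The MEFs agreed closely at these stretches, with a mean of 16.4 ± 0.482 at Clasrp and 15.4 ± 0.208 at Egr3 (SD, n = 3). A peak was present in 0, 4, 4, 2 and 0 iPS clones.

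By gene span, 1007 genes held at least 1 ES-only and 405 at least 1 MEF-only stretch. The most ES-only stretches lay in Gm20388 (14), a gene model of 4435 kb on chromosome 8, and Smyd3 (9), a histone methyltransferase gene of 566 kb; the most MEF-only stretches lay in Hoxa3 (6), a gene of 50.0 kb.

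ES-only stretches were most frequent on chromosomes 8 and 11, where they made up 13.3% and 13.2% of the ES stretches, against 6.56% to 10.7% on the other autosomes. Chromosome 8 held 7.29% and 7.61% of the peaks of RF8 and MG1.19, against 6.05% in B6 ES, 5.71% to 6.02% in the MEFs and 5.88% to 6.12% in the iPS clones. Chromosome 11 held 6.66% and 7.03% in RF8 and MG1.19, against 5.88% in B6 ES, 5.42% to 5.49% in the MEFs and 5.43% to 5.74% in the iPS clones. Both chromosomes were thus over-represented most in RF8 and MG1.19. B6 ES lay slightly above the MEFs and the iPS clones on chromosome 11. On chromosome 8 it lay just above the MEFs and within the range of the iPS clones. The part of chromosome copy number in the ES-only count was not tested.

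The rule did not use the 8 iPS clones, which came from Aid+/+ and Aid-/- MEFs, so their peaks describe the 2 sets independently of the rule. Of the ES-only stretches, 75.3% to 97.1% had a peak in a given clone (91.5 ± 7.28%, SD, n = 8), and 1594 of 2384 had one in all 8. Of the MEF-only stretches, 5.47% to 36.2% had one (15.7 ± 11.5%), and 286 of 622 had none in any clone. Common stretches had a peak in 97.8% to 99.3%. The ranges of the ES-only and MEF-only sets did not overlap in the 8 clones. When the sets were drawn without B6 ES, 59.2% of MEF-only stretches had a peak in a clone on average. The clones had 46.3% to 59.6% of their tags in peaks, more than 5 of the 6 samples compared.

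**Figure D5:**
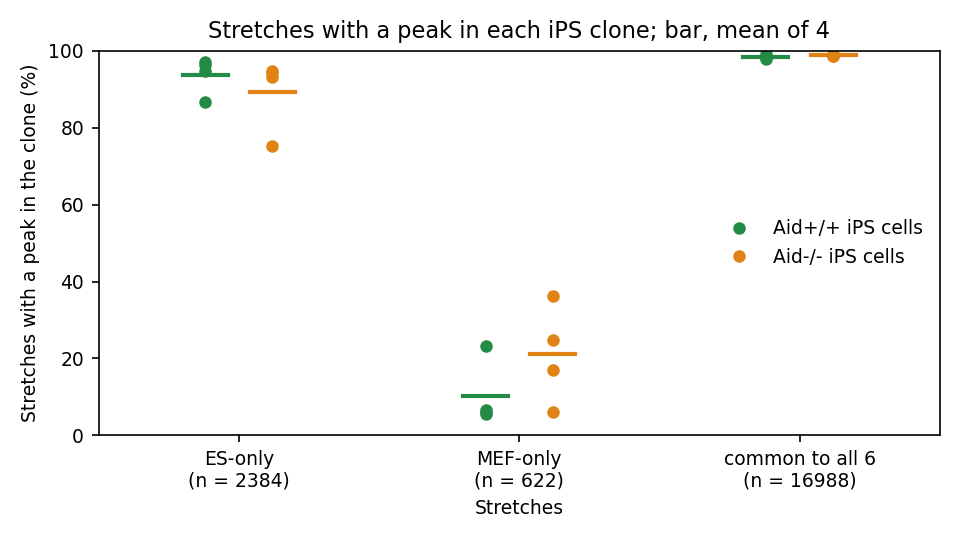
Share of ES-only, MEF-only and common stretches (percent, y axis) with a peak in each of the 8 iPS clones (points, with bars at the mean of 4), in 2 groups by Aid genotype. ES-only stretches lie between 75.3% and 97.1% and MEF-only stretches between 5.47% and 36.2%.

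The 2 genotypes overlapped in these shares. At ES-only stretches Aid+/+ clones had 93.7 ± 4.73% and Aid-/- clones 89.3 ± 9.39% (SD, n = 4 each), and at MEF-only stretches 10.3 ± 8.56% and 21.0 ± 12.7%. By promoter, 13 of 27 ES-only promoters had a peak in all 8 clones and none lacked one in every clone, whereas 0 of 84 MEF-only promoters had a peak in all 8 and 30 lacked one in every clone.

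Where all 6 samples had a peak, tag numbers could be compared. In 15195 such regions, edgeR's quasi-likelihood test with Benjamini-Hochberg adjustment at 0.05 called 577 higher in MEFs (3.8%) and 182 lower (1.2%), and 3694 had an unadjusted p under 0.05. Without B6 ES the test called 2670 higher and 1544 lower, and without RF8, MEF#1, MEF#2 or MEF#3 between 214 and 321 higher and between 13 and 22 lower. Of the calls 76.0% were higher in MEFs. With the length of each peak as an offset 712 were higher and 403 lower (63.9% higher). The median log2 fold change over all regions, MEFs over ES lines, was -0.12 with TMM scaling, and -0.36 with the tag numbers of the file headers. Of 173 regions at promoters, 10 were higher in MEFs (5.78%) and none lower, with a median log2 fold change of 0.35.

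Regions that overlapped a promoter window at any base were also ranked by p; by their midpoints those at Gm10545 and Catsper1 lay in exons and those at Lypd2 and Gm17579 in introns, so these 4 were not among the 173. The 5 with the smallest p among the regions higher in MEFs passed the test. Naa11, an N-terminal acetyltransferase gene active in testis (chr5:97820402-97821982), had 16.7, 10.9 and 72.4 CPM (tags scaled to the size of the library) in RF8, MG1.19 and B6 ES and 199, 188 and 323 in the MEFs, a log2 fold change of 2.79 ± 0.59 (SE; edgeR adjusted p = 0.0181). B6 ES lay above the other ES lines there but below each MEF. Lypd2 (chr15:74563363-74564359) had 2.34 ± 0.45 (edgeR adjusted p = 0.0111), and the gene models Gm10545, Gm6576 and Gm6139 had 3.29, 1.75 and 2.59. In the other direction, Catsper1, a sperm calcium channel (chr19:5335960-5336809), passed the test, with 52.5, 33.3 and 44.4 CPM in the ES lines, 17.7, 17.7 and 11.7 in the MEFs and a log2 fold change of -1.46 ± 0.35 (edgeR adjusted p = 0.0325). Gm17558, Krt23, Gm6721 and Gm17579 did not pass, with log2 fold changes of -1.07, -1.22, -0.90 and -0.87. Without RF8 or without MEF#3 the calls of Gm6576, Lypd2, Gm6139, Naa11 and Catsper1 were lost (edgeR adjusted p from 0.0563 to 0.188), that of Catsper1 also without MEF#1 (0.119) or MEF#2 (0.113), and that of Gm10545 was kept whichever sample was left out. Without B6 ES, Gm17558, Krt23 and Gm17579 passed (edgeR adjusted p = 0.0125, 0.0223 and 0.0138). With header tags as library size, Gm10545 and Naa11 passed. In that setting the calls of Gm6576, Lypd2, Gm6139 and Catsper1 were lost (edgeR adjusted p from 0.0562 to 0.190). On log2 fold enrichment no region passed. There Gm10545, Naa11 and Catsper1 had differences of 0.43, 0.40 and -1.14 (limma adjusted p = 0.465, 0.532 and 0.187).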

How the data were processed

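Methylated DNA of 14 samples, caught with an MBD protein kit, was sequenced and aligned to mm9 (NCBI build 37) with BWA 0.5.9rc1 by the authors, who called peaks with MACS and no input at a p cutoff of 1e-05. The submitters' processing notes name CASAVA 1.8.1 and MACS 1.4.1, whereas the file headers give 1.4.0rc2 for some samples. The deposited files give per peak the counts of tags, a fold enrichment (a ratio to the local background, up to 10 kb around) and a score of -10 times the log10 of the p-value (a −log10 scale). Per the file headers at most 2 tags per position were kept. Peaks on other chromosomes than autosomes (2044 to 4434 per sample) were left out.

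Stretches were intersections of the peaks of a group, without overlap of 1 bp or more with the other group. Genes were the protein-coding genes of GENCODE vM1 on the same build. List symbols not found there were matched by older RefSeq symbols (Khdc3 as 2410004A20Rik, Tfcp2l1 as Tcfcp2l1), and 9 were unmatched (Airn, H19, Kcnq1ot1, Meg3, Nespas, Peg13, Sox1, Sox3 and Taf9b). Promoter classes used windows of 500 bp moved by 5 bp: high where any window had an observed-to-expected CpG ratio of at least 0.75 and at least 55% GC, low where none reached 0.48, and otherwise intermediate. Sequences were read from the reference genome.

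The members and gene lists were chosen with earlier results of these data known. Genes named were, in each direction, the 10 promoters and 5 stretches (of at least 100 bp) with the highest weakest score, the 5 promoter regions with the smallest p in edgeR, list members called at their promoter, 9 marker genes, and the genes with most stretches. Tag counts of regions with a peak in all 6 samples were summed per sample and tested with edgeR 4.0.16 (TMM, quasi-likelihood), and alternatively with DESeq2 1.42.0 and limma 3.58.1. Shares per sample were tested by exact permutation. A region with a peak below threshold in any sample was not in the fit, so no ES-only or MEF-only member was tested there. The 3 ES lines and the 3 MEF cultures served as replicates.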

Additional observations from a re-analysis of the deposited data

Results flagged for a closer look

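Chance flags about 1 in 20 groups, and 6 groups of 4 iPS clones were examined for a clone far from the others. Of the ES-only stretches, 75.3% had a peak in 981E4, the lowest of the Aid-/- clones, whose other 3 lay between 93.3% and 94.6%. Its distance to the nearest clone was 0.931 of the group's range, above Dixon's critical value for 4 samples. Of the MEF-only stretches, 23.2% had a peak in 967B2, the highest of the Aid+/+ clones, whose other 3 lay between 5.47% and 6.59% (0.936 of the range). Beside these shares, 981E4 had the fewest peaks on autosomes of the 8 clones (65859) and 967B2 the next fewest (74815), and 46.3% and 47.2% of their tags lay in peaks. The part of the peak number in these shares was not tested.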

How the results depend on the processing

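The number of stretches depended on single libraries and on the peak numbers. Leaving out 1 sample at a time gave 2492 to 11869 ES-only and 673 to 6308 MEF-only stretches, 29 to 158 and 85 to 364 promoters, and 219 to 876 and 97 to 793 genes, with the highest ES-only counts without MG1.19 and the highest MEF-only counts without B6 ES. With the same number of peaks per sample there were 1289 and 3567 stretches, 14 and 179 promoters and 476 MEF-only genes. Within MACS 1.4.0rc2, which left MEF#1 as the only MEF, there were 4336 and 2373 stretches, 52 and 181 promoters, and 511 and 186 genes. At p of 1e-10 or less there were 17 ES-only promoters and 125 ES-only genes, and the wider promoter window gave 42 ES-only promoters.

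In regions with a peak in all samples, leaving out 1 sample gave 214 to 2670 regions higher in MEFs and 13 to 1544 lower. DESeq2 called 1166 and 443, edgeR with header tags as library size 177 and 32, limma on log2 fold enrichment 0 and 0 (2710 at an unadjusted p under 0.05), edgeR with peak length as an offset 403 lower, and the fit within MACS 1.4.0rc2 126 and 0, in which MEF#1 is assumed to vary like the ES lines. A filter at a mean of 20 tags removed no region. Differences between MEFs and ES lines over samples ran, with 1 sample left out, from -34323 to 828 for peaks, -19.8 to 6.23 Mb for covered length and -2.47 to 2.41 percentage points for intergenic peaks, and so changed sign without B6 ES (peaks, length) and without MG1.19 or MEF#2 (intergenic). The shares of stretches with an iPS peak ran from 80.4% to 93.8% (ES-only) and 14.3% to 59.2% (MEF-only, highest without B6 ES). The causes were not tested. No paired analysis was possible because the replicate numbers only name samples and the ES lines carry none in their labels.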

Other observations

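Beside 0.126% ES-only and 0.392% MEF-only among all promoters, the other gene families gave the following counts. Of 1106 olfactory receptor promoters, 1 was ES-only (Olfr1395) and 1 MEF-only (Olfr294, 0.0904% each), and of 365 genes with a Zfp symbol 1 and 1 (Zfp772 and Zfp503, 0.274% each). Of 100 genes with a symbol that starts with Krt, 1 was ES-only (Krt32, 1%) and 2 were MEF-only (Krt8 and Krtcap3, 2%). Krtcap3 is the keratinocyte-associated membrane protein named above and not a keratin. Without B6 ES, 10 of the 100 Krt symbols and 3 olfactory receptors were MEF-only, against 1.70% of all promoters, and without MG1.19, 4 and 3 were ES-only, against 0.738%. Of 46 collagen genes, none was ES-only and Col12a1, a collagen associated with fibrils, was MEF-only at its promoter (2.17%), with 14.9-, 14.7- and 16.3-fold enrichment in MEF#1, MEF#2 and MEF#3. Zfp503, a zinc finger regulator of development, had 24.0-, 24.0- and 28.7-fold. No promoter of 34 protocadherin, 327 vomeronasal receptor or 22 methylation machinery genes was called in either direction, and without B6 ES 1 vomeronasal receptor promoter was MEF-only.

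At the promoter of Pou5f1, a POU factor of pluripotent cells, none of the ES lines or MEFs and all 8 iPS clones had a peak. The paper generated its iPS cells with retroviruses that included this factor. Whether tags of the introduced copies fell in the promoter window, which extends past the gene start, was not tested. By pyrosequencing the paper found low methylation of this promoter in iPS cells of both Aid genotypes. The peak is therefore not evidence that the endogenous promoter was methylated. At the promoter of Col1a1, B6 ES and all 8 iPS clones had a peak, and RF8, MG1.19 and the MEFs had none.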
